A study of Rattus norvegicus with 180 samples.

Results

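miR-142-3p, miR-142-5p, miR-150 and miR-223 are microRNAs of blood-forming and immune cells, and their levels were measured here across the organs of the male rat. The members were chosen by name, as the array lists them (rno-miR-142-3p, rno-miR-142-5p, rno-miR-150 and rno-miR-223), which gave 4 of the 717 miRNAs of the array design. All 6 rats were male Sprague-Dawley animals of 10 weeks without any drug treatment apart from ether anesthesia. Of these, 3 rats (numbers 4, 5 and 6) were perfused with saline before collection and gave 55 organs each, and 3 rats (numbers 1, 2 and 3) were not perfused and gave liver, kidney, lung, heart atrium and heart interventricular septum. This made 60 groups of 3 arrays. The 6 parts of the intestine were scrapings of the mucosal epithelium, the liver was 1 lobe and the brain regions were cut from a section, per the study's methods. Every sample was bulk RNA of many cells, so fewer cells of a type and less RNA per cell cannot be told apart.

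A miRNA is a short RNA that pairs with messenger RNAs, mainly through the bases of its seed, and lowers their translation or stability. Both arms of the miR-142 hairpin are found in nearly all cells of the blood lineage and are therefore used as a general mark of leukocytes. miR-150 is known from mature B and T lymphocytes, where it accumulates late in development and targets the transcription factor Myb. miR-223 is known from granulocytes and other myeloid cells, where it restrains granulocyte maturation and activity. The comparison therefore follows 1 general leukocyte signal, 1 lymphocyte signal and 1 myeloid signal through organs that make, store or host these cells.

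The mature sequences of 3 members are shown because they are read by different probes and share no seed. They are from RefSeq (build GRCr8), 5′ to 3′, with the seed (bases 2 to 8) in capitals. The signal called miR-223 by the array is the 3′ arm of its hairpin.
rno-miR-142-5p: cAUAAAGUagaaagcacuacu
rno-miR-142-3p: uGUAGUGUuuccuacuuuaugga
rno-miR-223-3p: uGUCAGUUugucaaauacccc
Each of these seeds occurred in 1 mature rat miRNA of the RefSeq table, so none of the 3 had a seed partner there. Mature miR-142-5p lies at chr10:73055119-73055139 and miR-142-3p at chr10:73055155-73055177, both on the plus strand. Both come from the Mir142 hairpin (chr10:73055104-73055190), which is shown because the ratio of its arms is followed below, with the mature arms in capitals.
Mir142 hairpin: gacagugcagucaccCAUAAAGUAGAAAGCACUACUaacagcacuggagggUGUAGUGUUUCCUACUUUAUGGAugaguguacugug
In the RefSeq annotation Mir142 overlaps Tspoap1, a gene of a synaptic scaffold protein, and its neighbour on the right is Mpo, which encodes the myeloperoxidase of granulocytes. Mature miR-223 lies at chrX:65151450-65151470 on the plus strand, and Mir223 lies between Msn and Vsig4.

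The 180 arrays lay on 23 slides scanned on 3 days, and 86 to 244 miRNAs were detected per array. Levels below are scaled signals in array units, with a floor of 10.8 under which a value has no order, and a miRNA counted as detected when more than 50% of the spots read for it stood well above background. Signals of different miRNAs come from different probes, so levels are compared between organs within 1 miRNA. miR-142-3p was detected on 177 arrays, miR-142-5p on 87, miR-150 on 156 and miR-223 on all 180. The labels were checked against marker miRNAs fixed by name. The cervical lymph node of rat 4 stood apart, with the epithelial miR-200a at 1304, miR-200b at 1263 and miR-141 at 471, and with miR-375 at 292, while rats 5 and 6 lay at 10.8 for miR-200a, miR-200b and miR-375 and at 12.3 and 14.3 for miR-141. It also had the lowest mean correlation with the other arrays of its organ (0.931). Results that rest on this organ were recomputed without this array. The thymus carried the epithelial miR-200a at 138 to 215 in all 3 rats, and neither the mesenteric lymph node nor the spleen rose above the floor for it. The erythroid miR-451 lay at 4413 to 7351 in spleen and at 20148 to 32589 in bone marrow, against 13.6 to 32.8 in the lymph nodes.

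All 4 miRNAs differed between the 55 organs (limma F test over the whole table, adjusted p of 9.5e-76 for miR-142-3p, 1.3e-82 for miR-142-5p, 5.2e-69 for miR-150 and 2.3e-54 for miR-223). This says little by itself, since 344 of 345 miRNAs tested did so. From the highest to the lowest organ mean, miR-142-3p spanned 10.49 log2 units, miR-150 7.84, miR-142-5p 7.74 and miR-223 6.37. The lower end of miR-150 was the glandular stomach, where it was detected on 1 of 3 arrays. For miR-142-5p the lower end was the floor, which it did not exceed on any of 3 arrays in 24 organs. The order of organs was a continuum with few steps. Of the 54 pairs of neighbouring organs, the rats overlapped in 51 pairs for miR-142-3p, 53 for miR-142-5p, 50 for miR-150 and 52 for miR-223. The separate neighbours of miR-142-3p were thymus above cervical lymph node, spleen above duodenum, and liver above brown adipose tissue. Over 10 settings thymus ranked between 1 and 3 for miR-142-3p and between 1 and 4 for miR-142-5p. For miR-142-5p only bone marrow and duodenum were separate neighbours. For miR-150 cervical lymph node was separate from spleen, spleen from thymus, thymus from brown adipose tissue, and bone marrow from interseptum. For miR-223 bone marrow was separate from spleen, and bladder from thalamus.

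**Figure D1:**
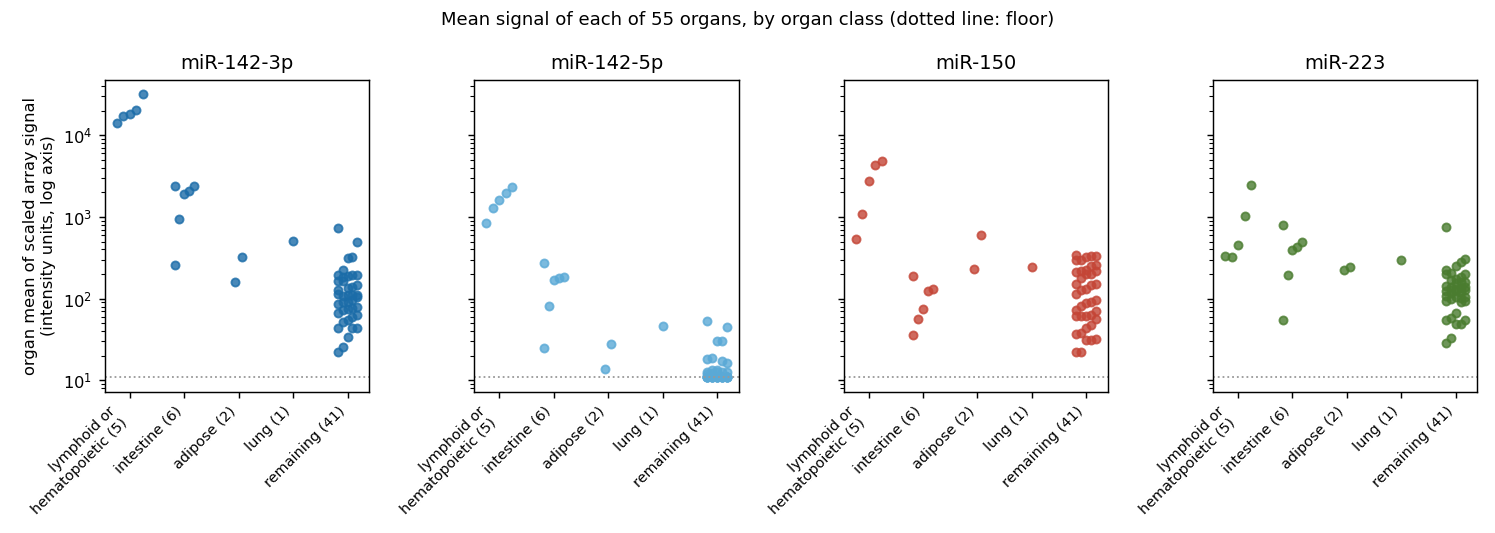
Mean scaled signal (log axis, array units) of each miRNA in the 55 perfused organs, 1 point per organ (mean of 3 rats), grouped into lymphoid or hematopoietic organs, intestine parts, adipose tissue, lung and the 41 remaining organs. The 5 lymphoid or hematopoietic organs lie above all others for both arms of miR-142, whereas for miR-223 organs of the other classes reach into their range.

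Expression of the general leukocyte signal was highest in the lymphoid organs and the bone marrow. miR-142-3p was 31107, 37355 and 28027 in the thymus of rats 4, 5 and 6. In the cervical lymph node it was 14498, 21695 and 25537, and in the mesenteric lymph node 14905, 21308 and 18156. Bone marrow held 13752, 14544 and 23544, and spleen 16079, 14826 and 11169. The lowest of these 15 arrays was 11169, far above the highest array of the other 50 organs, a cecum with 3828. The other arm followed it at lower signal. miR-142-5p was 2642, 2552 and 1855 in thymus, 1575, 1772 and 2562 in cervical lymph node, and 1336, 1970 and 1594 in mesenteric lymph node. It was 1372, 1520 and 954 in spleen and 795, 614 and 1147 in bone marrow. No array of the other 50 organs exceeded 398.

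The lymphocyte signal had another order. miR-150 was 4348, 5104 and 5244 in the mesenteric and 3245, 4794 and 4857 in the cervical lymph node. Spleen followed with 2879, 2784 and 2700, and thymus with 1235, 1155 and 850. Bone marrow held only 550, 462 and 623, below brown adipose tissue with 679, 531 and 600.5 in the order of means, although the rats of these organs overlapped. The next organs were interseptum (347 ± 35, SD, n = 3), heart atrium (337 ± 18) and medulla oblongata (335 ± 22), and the rats of bone marrow and interseptum did not overlap. The lowest organ was the glandular stomach with 21.9 ± 6.7. The ranks of both lymph nodes and spleen were the same in 10 settings, and ranks from the fourth on moved with the scaling. Thymus ranked between 4 and 7, bone marrow between 5 and 11, and interseptum between 7 and 21.

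The myeloid signal was highest in bone marrow. miR-223 was 3661, 2118 and 1642 there, and 1094, 1139 and 832 in spleen, and these ranges did not overlap. Organs outside the lymphoid group came next. Cecum held 1226, 651 and 542, pancreas 488, 864 and 878, and duodenum 362, 552 and 552. The mesenteric lymph node (362, 564 and 446), the thymus (326, 376 and 279) and the cervical lymph node (241, 360 and 395) lay among the parts of the intestine and the lung. The pancreas needs care, since its arrays had the lowest 75th percentiles of all (68.0 to 120.7 before scaling) and were therefore scaled up most. Over the 10 settings its rank for miR-223 ran from 2 to 38, while bone marrow ranked first in all 10. miR-142-3p was not detected on any of the 3 pancreas arrays. In the lumbar spinal cord miR-223 was 485 in rat 4 against 91.7 and 101 in rats 5 and 6, and miR-451 was 838, 142 and 52.9 in the same arrays, and the part of blood in this spread was not tested.

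**Figure D2:**
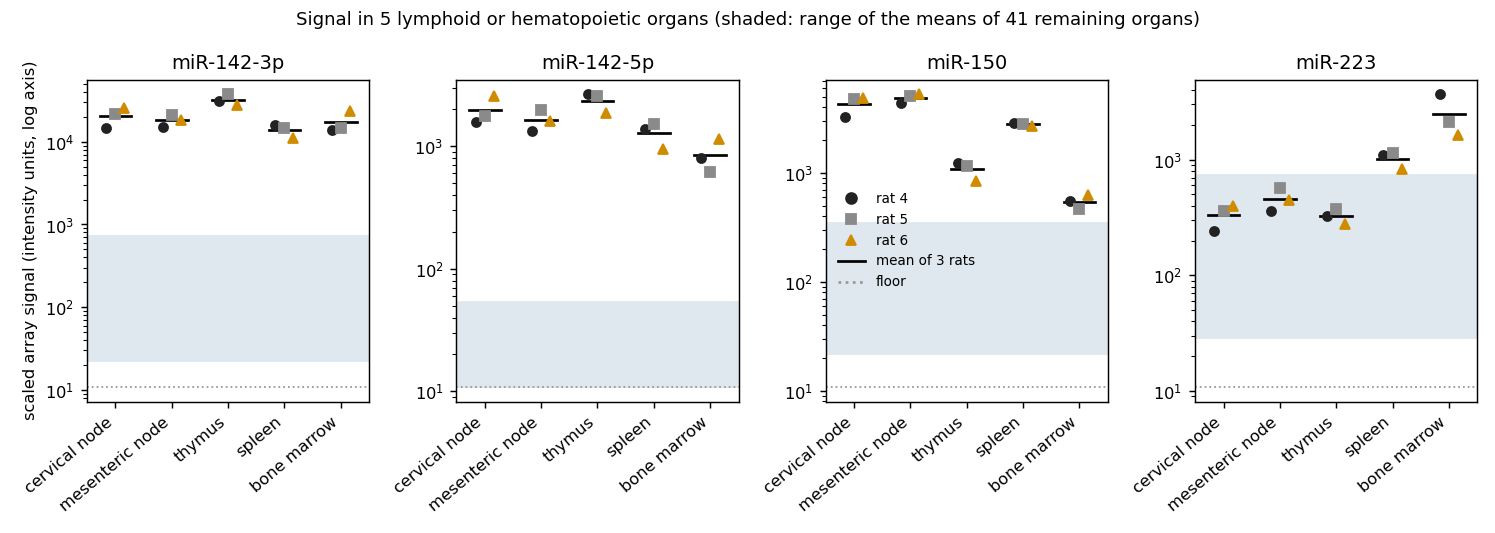
Scaled signal (log axis, array units, a different range in each panel) of the 4 miRNAs in thymus, both lymph nodes, spleen and bone marrow, 1 point per rat, a bar for the mean, and the range of the means of the 41 remaining organs shaded. miR-150 falls from the lymph nodes (3245 to 5244) to bone marrow (462 to 623), and miR-223 rises from the lymph nodes (241 to 564) to bone marrow (1642 to 3661).

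The first comparison asked how far each lymphoid or hematopoietic organ stood above the rest of the body. The reference was the mean of 41 perfused organs, which excludes these 5 organs, the 6 parts of the intestine, both adipose tissues and lung. All contrasts against it share these 123 arrays. Differences are log2 ± SE from the limma fit over all 180 arrays, adjusted over 345 miRNAs. In thymus miR-142-3p was higher by 8.30 ± 0.28 (adjusted p = 1.7e-56), and in the cervical lymph node by 7.62 (5.7e-52). It was higher by 7.46 in the mesenteric lymph node (1.0e-50), 7.37 in bone marrow (5.8e-51) and 7.09 in spleen (8.3e-49). The highest array of the 41 organs was 818, an epididymis. miR-142-5p was higher by 7.47 ± 0.21 in thymus, 6.94 in mesenteric lymph node, 6.58 in spleen and 5.97 in bone marrow. It was not detected on 86 of the 123 reference arrays, and set against the lowest signal well above background it was at least 169-fold higher in thymus and at least 140-fold in cervical lymph node.

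miR-150 was higher by 5.55 ± 0.22 in the mesenteric and 5.34 in the cervical lymph node (adjusted p of 2.9e-49 and 8.9e-48). It was higher by 4.74 in spleen, 3.36 in thymus and 2.38 in bone marrow (adjusted p = 2.0e-19). miR-223 was higher by 4.30 ± 0.20 in bone marrow (3.0e-41) and by 3.09 in spleen (1.2e-28). The differences were 1.92 in mesenteric lymph node, 1.45 in cervical lymph node and 1.45 in thymus (adjusted p = 2.5e-10), and in these 3 organs and spleen the arrays overlapped with those of the 41 organs. In the other 16 of the 20 pairs of miRNA and organ they did not.

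All 4 members passed the threshold upwards in each of the 5 organs, under each alternative and without each array or rat in turn. The background is wide. Of all miRNAs tested, 21.4% were called higher in the cervical lymph node, 22.9% in the mesenteric lymph node, 29% in thymus, 22.6% in spleen and 31.9% in bone marrow, and the median difference of all 345 miRNAs lay between -0.26 and -0.18. Within each of the 3 rats all these differences kept their sign. Against the spread between organs, rather than between rats, the mean of the 5 organs exceeded that of the other 50 by 7.05 log2 units for miR-142-3p and 6.41 for miR-142-5p (exact permutation test of organ means, two-sided, adjusted p of 1.15e-06 for both), by 4.22 for miR-150 (1.15e-06) and by 2.22 for miR-223 (1.4e-04).

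The second comparison asked how these organs differed among themselves. In the cervical minus the mesenteric lymph node the differences were 0.16 ± 0.39 for miR-142-3p, 0.26 ± 0.29 for miR-142-5p, -0.21 ± 0.30 for miR-150 and -0.47 ± 0.29 for miR-223. None of the 4 passed, where 8.7% of all miRNAs did, and the 95% intervals left room for differences of up to -1.04 (miR-223) and 0.93 (miR-142-3p). The nodes were therefore averaged as the reference for the other organs.

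Thymus, where T cells mature, had lower miR-150 than the lymph nodes, by 2.09 ± 0.26 (4.26-fold, adjusted p = 5.1e-12), with no overlap and a lower value within each rat (-2.57 to -1.60). Here 11.9% of all miRNAs were called lower and 24.9% higher. miR-142-3p was higher in thymus by 0.75 ± 0.34 with no overlap between the arrays, and did not pass (adjusted p = 0.073). This difference depended on the setting. It was -0.05 when the 75th percentile was taken over all miRNAs, a choice that shifted thymus by -0.81 log2 units against the nodes, and it passed in 4 of 17 alternatives (0.75 to 0.86). miR-142-5p differed by 0.40 ± 0.25 (adjusted p = 0.27) and miR-223 by -0.23 ± 0.25 (0.68), and miR-223 passed downwards in 3 of 17 alternatives (-1.04 to -0.69). In the same contrast 4 of 5 epithelial markers were called higher (median 2.45) and both endothelial markers lower (median -2.12), and their part in these differences was not tested.

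Spleen, which filters blood and holds both lymphocytes and myeloid cells, had more miR-223 than the lymph nodes, by 1.41 ± 0.25 (2.65-fold, adjusted p = 3.5e-06), and the arrays did not overlap. Of all miRNAs, 8.41% were called higher and 7.25% lower. miR-150 was lower by 0.71 ± 0.26 (adjusted p = 0.049, 3 spleens below 6 nodes), a call so close to the threshold that 8 of 17 alternatives and 9 of 12 fits without an array or a rat lost it, among them the fit with rat as a block (adjusted p = 0.060). Both arms of miR-142 differed by less than 0.5 log2 units (-0.45 ± 0.34 and -0.49 ± 0.25), and neither passed.

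Bone marrow, where blood cells form, differed from the nodes in 3 of the 4. miR-150 was lower by 3.07 ± 0.26 (8.40-fold, adjusted p = 1.1e-20) and miR-223 higher by 2.61 ± 0.25 (6.11-fold, adjusted p = 8.9e-18), and neither overlapped. miR-142-5p was lower by 1.10 ± 0.25 (adjusted p = 1.2e-04), while miR-142-3p differed by -0.18 ± 0.34 (adjusted p = 1). In this comparison 27% of all miRNAs were called higher and 12.5% lower. Scaling over all miRNAs shifted bone marrow by -0.70 against the nodes and gave miR-142-3p a lower value as well (-0.87, adjusted p = 0.029). Within the rats miR-150 ran from -3.42 to -2.77 and miR-223 from 1.97 to 3.63. All 3 erythroid markers tested were called higher than in the nodes (median 7.00) and 4 of 5 epithelial markers lower (median -0.92). Their part in these differences was not tested. Set against spleen, bone marrow had lower miR-150 by 2.37 ± 0.30 (adjusted p = 1.5e-11) and higher miR-223 by 1.21 ± 0.29 (2.0e-04), with 10.4% of all miRNAs called lower and 25.8% higher. The miR-223 call was lost with scaling over all miRNAs (0.22, adjusted p = 0.95), in the table of normalized intensities (0.67, adjusted p = 0.076) and with only the arrays compared (1.21, adjusted p = 0.083), while that of miR-150 passed in all alternatives. miR-142-3p (0.27 ± 0.39) and miR-142-5p (-0.61 ± 0.29) did not pass there, and miR-142-5p passed with scaling over all miRNAs (-1.59), quantile normalization (-0.83) and a floor 4 times as high (-0.61). Without the cervical lymph node of rat 4, the differences from the nodes were -3.17 for miR-150 and 2.50 for miR-223 in bone marrow, -2.19 for miR-150 in thymus, and 1.30 for miR-223 and -0.80 for miR-150 in spleen, and all 5 passed.

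The size of the miR-150 difference in bone marrow depended on the probe. Each member was read by 2 probe sequences. For the other members and the organs compared the widest gap between them was that of miR-223 in lung, with differences from the 41 organs of 1.16 and 1.40. For miR-150 the first probe gave bone marrow 296, 294 and 457 against 950 to 1502 in the nodes, a difference of -1.90. The second gave 804, 629 and 788 against 5541 to 9019, a difference of -3.41. Against spleen the probes gave -1.18 and -2.70, and in thymus minus the nodes -2.08 and -2.10. Bone marrow was thus lower than the nodes on both, by an amount that differed between them, and over the 55 organs they correlated with r = 0.980. Why they differ in this organ was not tested.

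A scaling factor of an array multiplies all its signals, so the ratio of 2 miRNAs above the floor on 1 array does not depend on it. Ratios of dim miRNAs do, since the floor is set after scaling. The log2 ratio of every miRNA to miR-142-3p was therefore fitted in the same way, and differences of this ratio from the lymph nodes were read. The ratio of miR-150 differed by -2.89 ± 0.33 in bone marrow (adjusted p = 1.4e-13), by -2.84 ± 0.33 in thymus (6.7e-13) and by -0.25 ± 0.33 in spleen (0.56). The ratio of miR-223 was higher by 2.79 ± 0.32 in bone marrow (2.7e-13) and by 1.86 ± 0.32 in spleen (3.4e-06). In thymus it differed by -0.99 ± 0.32 (0.012). The thymus call was lost without rat 4, without rat 5, with quantile normalization (-0.69) and in the table of normalized intensities (-0.99). For this ratio 19.5% of all miRNAs were called higher and 6.1% lower in bone marrow, 9.3% and 17.4% in thymus, and 4.36% and 0.291% in spleen. These shares moved with the scaling, as in bone marrow, where 233 miRNAs in place of 88 were called with scaling over all miRNAs, and in thymus, where 220 in place of 92 were called with scaling by the median. In thymus the median ratio of all miRNAs was itself lower by 0.75, so the difference of miR-223 there was near the shift of all miRNAs, and that of miR-150 was beyond it.

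The arms of miR-142 kept a narrow ratio. In the 17 organs where both were detected on all 3 arrays, the log2 ratio of the 5p to the 3p signal ran from -4.35 in bone marrow to -3.09 in ischial nerve, with a median of -3.49. In bone marrow it was lower than in the nodes by 0.92 ± 0.26 (adjusted p = 0.0024), with no overlap. Thymus (-0.36 ± 0.26, adjusted p = 0.21) and spleen (-0.04 ± 0.26, 0.92) did not pass. The bone marrow call was lost with quantile normalization, with the values of the table of normalized intensities and without rat 5, so it is less firm than those of miR-150 and miR-223. Over the 55 organ means the arms correlated with r = 0.970, and over the 50 organs outside the lymphoid group with r = 0.919. miR-142-5p was at the floor on 96 of 180 arrays, which limits what these 2 values show. By comparison miR-150 and miR-142-3p correlated with r = 0.556 over 55 organs and -0.03 over the 50, so that correlation rested on the 5 organs. miR-223 and miR-142-3p gave 0.780 and 0.758. These are descriptions over organ means that share 3 rats.

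**Figure D3:**
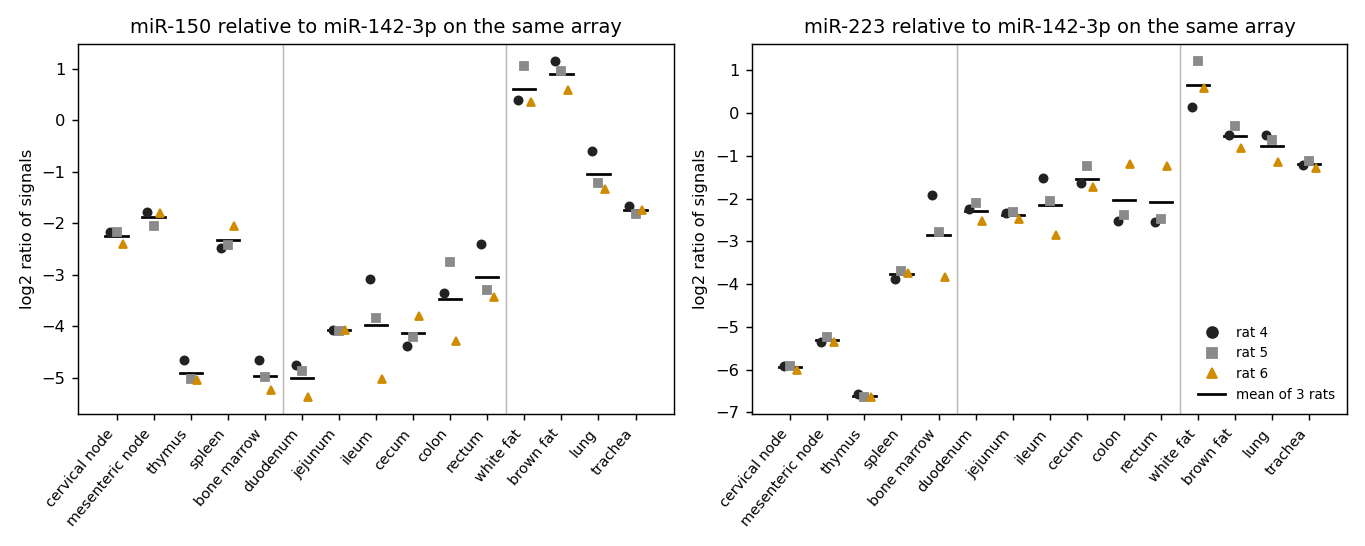
Within-array log2 ratio of miR-150 and miR-223 to miR-142-3p in lymphoid organs, intestine parts, adipose tissue, lung and trachea, 1 point per rat (circle rat 4, square rat 5, triangle rat 6) and a black bar for the mean. The miR-150 ratio is near -5 in thymus and bone marrow and near -2 in lymph nodes and spleen, and the miR-223 ratio is lowest in thymus (-6.62).

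The third comparison turned to the intestine, whose mucosa hosts lymphocytes and macrophages. The samples were scraped mucosal epithelium and not the whole gut wall. miR-142-3p was 1706, 2385 and 3193 in duodenum, 1467, 2069 and 2710 in jejunum, and 429, 1062 and 1352 in ileum. In the large intestine it was 3828, 1536 and 1812 in cecum, 3370, 1265 and 1063 in colon, and 342, 311 and 117 in rectum. Rectum was thus the only part within the range of the 41 reference organs on all 3 arrays. The mean of the 6 parts exceeded that of the 41 organs by 3.59 ± 0.12 for miR-142-3p (adjusted p = 4.4e-57), 3.08 ± 0.09 for miR-142-5p (2.7e-63) and 1.29 ± 0.09 for miR-223 (4.6e-28), where 33.6% of all miRNAs were called higher, and the arrays overlapped with those of the 41 organs. The size for miR-142-5p rested on the floor, with 1.51 for a floor 4 times as high, 1.14 under another background correction and 6.34 in the table of normalized intensities. The parts did not all share the higher miR-223. It was 585, 241 and 462 in colon, 288, 416 and 486 in jejunum, and 148, 254 and 186 in ileum, while in rectum it was 58.4, 55.8 and 49.6, a mean 0.459 times that of the 41 organs. Markers of other cells moved in the same contrast. All 5 epithelial markers were called higher (median 5.26), while both endothelial markers (median -1.14) and all 4 of striated muscle (median -2.33) were called lower. Of all miRNAs, 56.2% were called lower in this contrast. In the cecum of rat 4, where miR-142-3p was highest, the epithelial miR-200a was 1221 against 3930 and 5408 in rats 5 and 6. The part of these cells in the results was not tested.

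miR-150 did not share this. It was 332, 187 and 54.4 in colon, 87.7, 122 and 161 in jejunum, and 51.0, 74.6 and 41.7 in ileum. Over the 6 parts it was lower than in the 41 organs by 0.39 ± 0.09 (adjusted p = 7.2e-05), as were 56.2% of all miRNAs. The parts differed in direction. miR-150 was 0.271 times the level of the 41 organs in rectum, 0.520 times in ileum and 0.707 times in duodenum. In jejunum, cecum and colon it was 1.15, 1.21 and 1.44 times that level. It was detected on 1 of 3 arrays in duodenum and on 2 of 3 in ileum and in rectum. Within the scan days its sign differed (-0.81 to 0.26), and the call was lost under another background correction (-0.03) and without rat 6 (-0.17). Tested against the spread between organs, miR-150 did not differ (exact permutation of organ means, two-sided, adjusted p = 0.46), while the differences of miR-142-3p (adjusted p = 1.19e-06), miR-142-5p (1.15e-06) and miR-223 (0.0039) passed. The miR-223 call was lost with scaling over all miRNAs (adjusted p = 0.052), quantile normalization (0.052) and the table of normalized intensities (0.10). Within the arrays the miR-150 ratio to miR-142-3p was lower than in the nodes by 1.89 ± 0.22 (adjusted p = 8.0e-15). It was the only one of 344 miRNAs called lower (0.291%), while 98.8% were called higher, since miR-142-3p itself is lower in intestine than in the nodes. The miR-223 ratio was higher by 3.55 ± 0.21, below the median of 3.95 of all miRNAs.

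Along the gut the large intestine had lower miR-142-3p than the small intestine by 0.75 ± 0.23 (adjusted p = 0.0033) and lower miR-142-5p by 0.89 ± 0.17 (3.0e-06), as did 34.8% of all miRNAs. This did not hold within the rats, since rat 4 went the other way (0.68 and 0.44). It did not hold under the other scalings either, which gave -0.33 to -0.03 for miR-142-3p and -0.47 to -0.25 for miR-142-5p, and none of these values passed. Rectum was the lowest part for both arms, with mean log2 signals of 7.86 (miR-142-3p) and 4.47 (miR-142-5p). Cecum (11.10 and 7.43) and colon (10.69 and 7.15) lay within the range of the parts of the small intestine (9.73 to 11.20 and 6.22 to 8.00). miR-223 differed by -0.37 ± 0.16 (adjusted p = 0.066), and passed in 3 of 17 alternatives and in 6 of 21 fits without an array or a rat (-0.79 to -0.10). Its mean log2 signal was 5.77 in rectum, 8.65 in colon and 9.56 in cecum, against 7.58 to 8.90 in the small intestine. miR-150 differed by 0.05 ± 0.17 and had no settled direction, since it passed upwards under the other scalings (0.46 to 0.65) and downwards under another background correction (-0.72) and without rat 4 (-0.56). Ileum was lower than jejunum for all 4, by 1.25 ± 0.39 for miR-142-3p (adjusted p = 0.021), 1.28 ± 0.29 for miR-142-5p (4.9e-04), 1.15 ± 0.30 for miR-150 (0.0032) and 1.02 ± 0.29 for miR-223 (0.0069). The arrays did not overlap, and 3.48% of all miRNAs were called lower here. With only the 6 arrays compared in the fit, or under another background correction, none of the 4 passed. Scaling by the median lost miR-142-3p (adjusted p = 0.072) and miR-223 (0.074), the table of normalized intensities lost both arms of miR-142 (0.22 and 0.91), and a floor 4 times as low lost miR-142-5p (0.11), and without 1 rat or array they held in 4 (miR-142-3p) to 8 (miR-142-5p) of 9 fits. The erythroid miR-451 was at most 47.3 in every part of the intestine.

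**Figure D4:**
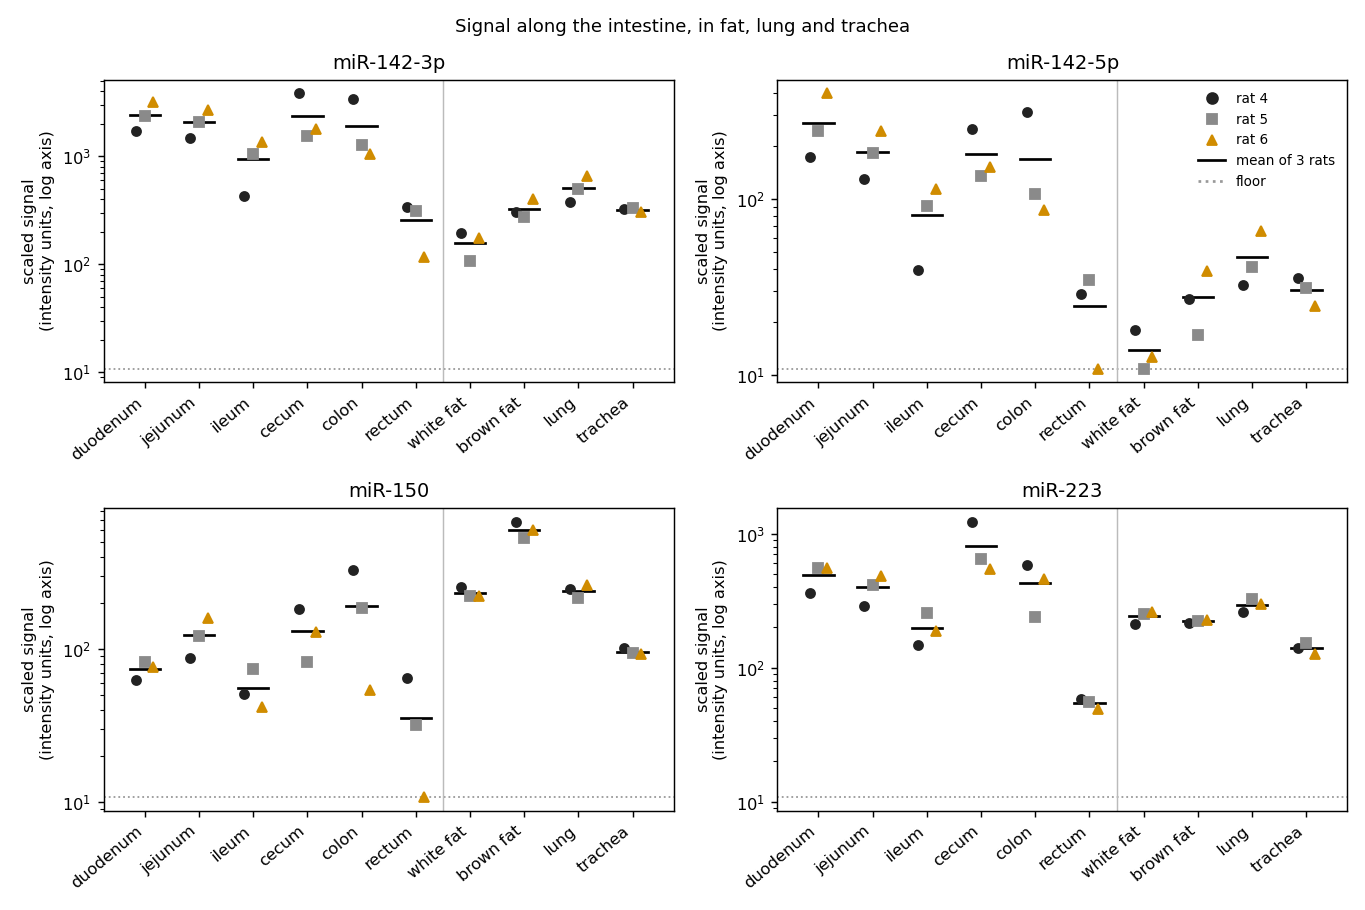
Scaled signal (log axis, array units) of the 4 miRNAs in the parts of the intestine, adipose tissues, lung and trachea, 1 point per perfused rat, a black bar for the mean and a dotted line at the floor. miR-142-3p is lowest in rectum among the parts of the intestine, and miR-150 is higher in brown adipose tissue (531 to 679) than in any other organ shown.

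Both adipose tissues were compared with the same 41 organs. In brown adipose tissue, which burns fat for heat, miR-150 was 679, 531 and 600.5, above every array of the 41 organs (highest 387). It exceeded their mean by 2.53 ± 0.22 (5.77-fold, adjusted p = 1.2e-20), where 21.7% of all miRNAs were called higher. miR-142-3p was 305, 275 and 400.5 there and higher by 1.67 ± 0.28 (adjusted p = 6.9e-08). miR-142-5p was higher by 0.99 ± 0.21 and miR-223 by 0.90 ± 0.20, and for these and miR-142-3p the arrays overlapped with those of the 41 organs. The miR-142-5p value rested on the floor, and it was -0.01 with a floor 4 times as high. It also did not pass with scaling by the median (0.27) or with another background correction (0.10). miR-223 did not pass with scaling by the median (0.13) or with the other background correction (0.61).

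In white adipose tissue miR-150 was 256, 222 and 222 and exceeded the 41 organs by 1.16 ± 0.22 (adjusted p = 1.1e-06), and miR-223 was 213, 250 and 262, higher by 1.02 ± 0.20 (5.9e-06). Here 14.5% of all miRNAs were called higher. The arrays of miR-150 and miR-223 overlapped with those of the 41 organs (highest 387 and 878). Neither passed under another background correction (0.38 and 0.50). miR-142-3p, at 194, 107 and 175, was higher by 0.60 ± 0.28 with an adjusted p of 0.049 that 7 of 17 alternatives lost. miR-142-5p differed by 0.04 ± 0.21 (adjusted p = 0.86). Brown exceeded white adipose tissue by 1.37 ± 0.30 for miR-150 (adjusted p = 1.2e-04), 1.07 ± 0.39 for miR-142-3p (0.031) and 0.95 ± 0.29 for miR-142-5p (0.0091), with 17.4% of all miRNAs called higher, and by -0.12 ± 0.29 for miR-223. With scaling by the median over the miRNAs detected on all arrays, which shifted brown against white by -1.10, miR-142-3p gave -0.03, miR-142-5p 0.014 and miR-150 0.27, none of which passed, and miR-223 passed with -1.21. Quantile normalization also lost the call of miR-150 (0.58, adjusted p = 0.14). The call of miR-142-3p was lost in 7 of 17 alternatives, among them all 4 other scalings (-0.03 to 0.61), and that of miR-142-5p in 7 of 16. Without an array or a rat, miR-142-3p passed in 4 of 9 fits and miR-142-5p in 5 of 9. With a floor 4 times as high the miR-142-5p difference was 0. Other cells differed as well. miR-451 was 525 to 595 in brown and 244 to 251 in white adipose tissue, and the endothelial miR-126 3233 to 3626 and 1837 to 2113. In brown adipose tissue the striated muscle marker miR-1 was 397, 595 and 52.2. Their part in the miR-150 difference was not tested.

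Lung carried all 4. miR-142-3p was 375, 502 and 658, miR-150 249, 215 and 262, and miR-223 262, 323 and 297. Against the 41 organs miR-142-3p was higher by 2.29 ± 0.28 (adjusted p = 1.5e-12), miR-142-5p by 1.76 ± 0.21 (5.5e-13), miR-223 by 1.30 ± 0.20 (1.5e-08) and miR-150 by 1.21 ± 0.22 (3.9e-07), where 20.3% of all miRNAs were called higher. miR-142-5p was 0.19 with a floor 4 times as high and turned to -0.36 under another background correction, which also lost the call of miR-150 (0.33). The arrays of all 4 overlapped with those of the 41 organs. Trachea, the airway without alveoli, had miR-142-3p of 323, 331 and 309 and miR-150 of 102, 93.8 and 92.4. Lung exceeded it by 1.33 ± 0.30 for miR-150 (adjusted p = 1.3e-04) and 1.07 ± 0.29 for miR-223 (0.0015), with 15.1% of all miRNAs called higher, whereas miR-142-3p (0.64 ± 0.39, adjusted p = 0.31) and miR-142-5p (0.56 ± 0.29, 0.18) did not pass. With scaling over all miRNAs both did (1.35 and 1.28), and miR-142-5p also passed with the lungs that were not perfused added (0.71). The miR-223 call was lost with scaling by the median (0.63) and under another background correction (0.86). Markers of other cells moved as well. The endothelial miR-126 and miR-126* were higher in lung than in trachea by 3.02 ± 0.28 and 2.85 ± 0.41, and of the erythroid markers tested miR-451 was higher by 2.55 ± 0.76 and miR-144 by 0.67 ± 0.20 (adjusted p of 0.0050 and 0.0055). Their part in the differences was not tested.

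Relative to miR-142-3p, miR-150 was higher than in the nodes by 2.66 ± 0.33 in white adipose tissue, 2.96 ± 0.33 in brown adipose tissue and 1.01 ± 0.33 in lung, and miR-223 by 6.28, 5.09 and 4.86. These ratios rose for 99.7% of all miRNAs in each of the 3 organs, with medians of 6.94, 5.88 and 5.25. The increase in miR-150 was therefore smaller than that of the typical miRNA, and nothing about the members is read from it. The ratio of miR-142-5p differed from the nodes by -0.21 to -0.04 in intestine, both adipose tissues and lung, and did not pass in any of them. It had no settled direction, since another background correction gave called values of 0.72 to 2.07 in all 4, a floor 4 times as high gave 1.60 in white adipose tissue, and quantile normalization gave -0.43 in intestine.

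The last comparison asked whether blood left in the vessels carried these signals. Lung, liver, kidney, atrium and interventricular septum of perfused rats were compared with those of rats that were not perfused, which are different animals. All arrays without perfusion were scanned on day 1, and the perfused arrays of these organs on days 1, 2 and 3. Perfusion was thus partly confounded with scan day. Over the 5 organs, the differences of perfused minus not perfused were -0.02 ± 0.17 for miR-142-3p, -0.03 ± 0.13 for miR-142-5p, -0.20 ± 0.13 for miR-150 and -0.03 ± 0.13 for miR-223, each with an adjusted p of 1. The 95% intervals ran from -0.36 to 0.33, -0.29 to 0.23, -0.47 to 0.07 and -0.28 to 0.23. These intervals take the arrays as independent, although the 5 organs of a rat share that rat. The means over 5 organs were 7.75, 7.64 and 8.15 for miR-142-3p in rats 1, 2 and 3, against 7.61, 7.71 and 8.16 in rats 4, 5 and 6. For miR-150 they were 7.43, 7.65 and 7.67 against 7.38, 7.23 and 7.55. The rat means of all 4 miRNAs overlapped between the conditions. An exact permutation test over these rat means, two-sided, gave p = 0.80 for miR-142-3p, 0.90 for miR-142-5p, 0.20 for miR-150 and 1 for miR-223 (adjusted p of 1, 1, 0.80 and 1), where 3 rats against 3 cannot go below 0.10. Of all 345 miRNAs, 0.29% were called lower and 0% higher by limma, and 5 and 4 had an unadjusted p under 0.05. The call was miR-451, a miRNA of red blood cells, which was lower by 2.63 ± 0.34 in the perfused rats (adjusted p = 1.0e-09).

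miR-150 in lung was the only case among the 20 pairs of miRNA and organ without overlap. It was 373, 350 and 439 in rats 1, 2 and 3 and 249, 215 and 262 in rats 4, 5 and 6. The difference was -0.68 ± 0.30 (95% interval -1.27 to -0.08), with an adjusted p of 1 in limma and 0% of all miRNAs called in this organ, where 3 of 345, miR-150 among them, had an unadjusted p under 0.05. In the same lungs miR-451 was 405, 559 and 558 without perfusion and 17.5, 422 and 1080 with it, so 1 of the perfused lungs lay above all 3 that were not perfused. miR-142-3p was 614, 465 and 828 against 375, 502 and 658, and miR-223 393, 316 and 378 against 262, 323 and 297. The effect of perfusion did not differ between the 5 organs for any of the 4 (interaction F test, adjusted p of 1 for each).

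**Figure D5:**
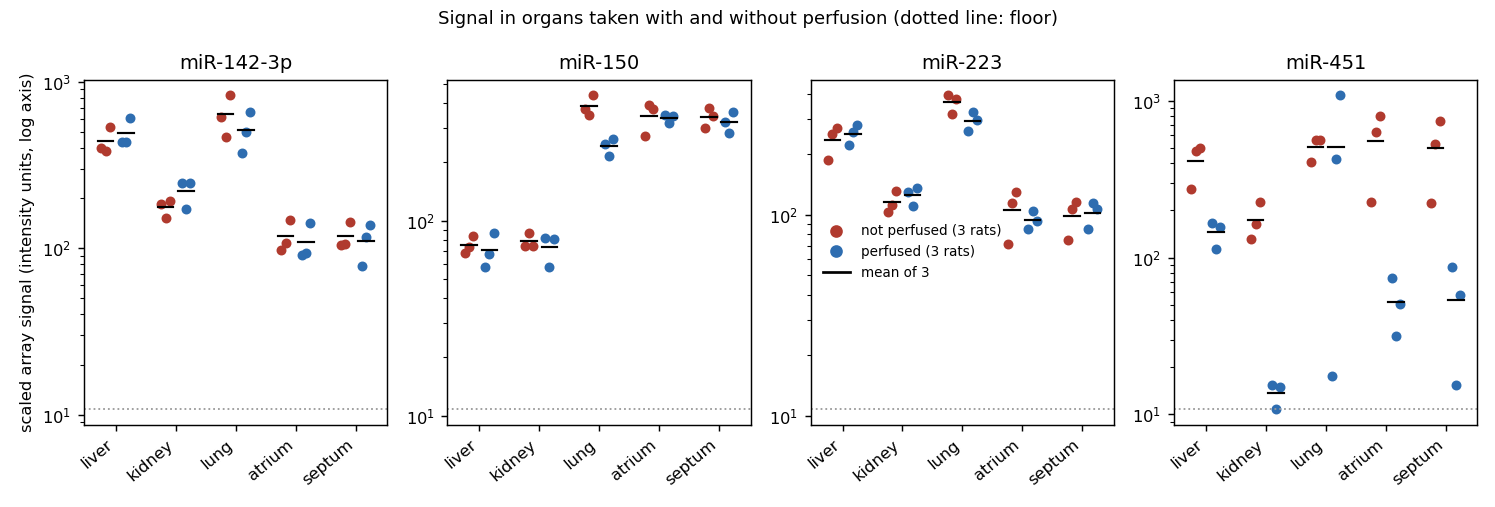
Scaled signal (log axis, array units, a different range in each panel) of miR-142-3p, miR-150, miR-223 and miR-451 in liver, kidney, lung, heart atrium and heart interventricular septum, with 3 perfused and 3 not perfused rats side by side. miR-451 is lower after perfusion in liver, kidney, atrium and septum, and the leukocyte miRNAs overlap between conditions in every organ apart from miR-150 in lung.

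The miRNAs nearest to each member, with the 4 members themselves left out, were taken by Pearson correlation over the 55 organ means. For miR-142-3p they were miR-20b-5p (0.865), miR-106b (0.861) and miR-17-5p (0.848), which belong to the related miR-17 family, and for miR-142-5p miR-106b (0.840), miR-16 (0.821) and miR-17-5p (0.807). miR-223 was nearest to miR-146a (0.817), miR-92a (0.755) and miR-20b-5p (0.723). miR-150 had lower correlations. Its highest values were miR-363 (0.638), miR-342-3p (0.625) and a second entry for miR-363 (0.621), and over the 50 other organs these fell to 0.09, 0.36 and 0.05.

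A list of other immune miRNAs was followed by counts. Of 11 listed, 9 were in the design and 7 were tested: miR-146a, miR-146b, miR-150*, miR-181a, miR-181b, miR-21 and miR-342-3p. Against the 41 organs, 6 of 7 were called higher in cervical lymph node, mesenteric lymph node, thymus and spleen and 7 of 7 in bone marrow, with medians of 1.48, 1.40, 2.14, 1.15 and 1.35. The shares of all miRNAs called higher were 21.4%, 22.9%, 29%, 22.6% and 31.9%. In these organs 1 was called lower, miR-146b in the mesenteric lymph node, where 54.2% of all miRNAs were. In bone marrow minus lymph nodes 3 of 7 were higher and 4 lower, with a median of -0.65, against 27% and 12.5% of all miRNAs. miR-181b was higher by 1.91 and miR-181a by 1.08, as was miR-146b. The differences were -2.47 for miR-342-3p, -1.63 for miR-21, -1.33 for miR-146a and -0.65 for miR-150*, the other arm of the miR-150 hairpin. miR-342-3p, which like miR-150 lay highest in the lymph nodes, was 200, 197 and 195 in bone marrow against 775 to 1284 in the nodes. In intestine 4 of 7 were higher and 3 lower, in white adipose tissue 1 and 3, in brown adipose tissue 1 and 2, and in lung 4 and 0. The shares of all miRNAs called higher were 33.6% in intestine, 14.5% in white adipose tissue, 21.7% in brown adipose tissue and 20.3% in lung, and those called lower were 56.2% in intestine, 54.5% in white and 47.8% in brown adipose tissue. In lung 253 of all 345 miRNAs were called in either direction. Of the 7, 0 passed for perfusion over the mean of 5 organs.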

How the data were processed

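Total RNA (0.1 μg, Cy3) of 180 organ samples was hybridised to 1-color Agilent rat miRNA arrays. The authors deposited scanner output with a background-corrected signal intensity per spot (Agilent Feature Extraction 10.7.3), and a table of normalized signal intensities, used as an alternative. Here outlier spots were dropped. Spots were averaged per probe, and the 2 probes of each miRNA were averaged next. The signals of an array were divided by the 75th percentile of 37 miRNAs, those that all arrays detected, and multiplied by 2118. A floor of 10.8 was applied before the log2 step. miRNAs detected on every array of a group were tested (345 of 717). Tests were two-sided limma contrasts over 60 groups of 3, with Benjamini-Hochberg adjustment over all miRNAs tested and a threshold of 0.05, run also on the ratio to miR-142-3p, and exact permutation of organ means (adjusted over 8 tests). For perfusion, an exact permutation of rat means (adjusted over 4 tests) was added after the results were seen. At-least folds took, per array, the higher of the signal and the lowest signal well above background. The number of arrays limits the precision.

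The members and lists were chosen with earlier results of these data known. Named miRNAs were the members, the 3 nearest of each, the immune list and the markers of other cells. Organs with one number come from one rat, so the numbers pair the samples: deviations from the group means correlated at 0.050 on average within a rat and at -0.033 between rats. Within a rat the value was 0.171 for arrays on the same slide and 0.032 for arrays on different slides. For 8 arrays the labels give 2 rat numbers, and an alternative left them out. Alternatives changed scaling, floor, background, spot summary, filter, blocks and arrays. For the background alternative, normexp was run on the median spot signal. Contrasts and permutation tests were tested on simulated data. Versions were R 4.3.3, limma 3.58.1, Python 3.11.15, numpy 2.4.6, pandas 2.3.3, scipy 1.17.1 and matplotlib 3.10.9. The sequence of miR-150 was not used here.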

Additional observations from a re-analysis of the deposited data

How the results depend on the processing

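Over 125 results and 18 settings, 1904 of 2017 values kept their side of the threshold without a called change of direction. Without a rat or an array 1310 of 1365 values did so. These counts include 41 and 76 values that changed sign where neither value passed. The differences of the 5 lymphoid or hematopoietic organs from the 41 organs, of miR-150 in thymus and bone marrow against the nodes, of miR-223 in spleen and bone marrow against the nodes, and the ratios of miR-150 in bone marrow and thymus and of miR-223 in bone marrow and spleen passed in all of them. The cause of the changes below was not tested unless stated. For thymus minus lymph nodes, miR-142-3p passed with scaling by the median (0.86), with only miRNAs detected on at least 50% of arrays (0.75), with only the arrays compared (0.75) and with slide as a random block (0.84), and miR-223 passed with scaling over all miRNAs (-1.04), quantile normalization (-0.69) and the authors' table (-0.880). Without a rat or an array these ran from 0.59 to 0.94 for miR-142-3p and from 0.16 to 0.66 for miR-142-5p. For spleen minus lymph nodes, miR-142-5p passed with a floor 4 times as high (-0.49). The call of miR-150 there was lost with scaling over all miRNAs (-0.42), quantile normalization (-0.58), normexp (-0.67), outlier spots kept (-0.70), medians of spots (-0.69), no filter (-0.71), the replicate block (-0.71, adjusted p = 0.060) and without the arrays with 2 rat numbers (-0.71), with -0.87 to -0.61 without a rat or an array. For bone marrow minus lymph nodes, miR-142-3p passed with scaling over all miRNAs (-0.87), and miR-142-5p failed in the authors' table (-1.76). Its ratio to miR-142-3p failed with quantile normalization (-0.62) and the authors' table (-0.92), and ran from -1.04 to -0.81 without a rat or an array. The miR-223 ratio in thymus failed with quantile normalization (-0.69) and the authors' table (-0.99), and ran from -1.01 to -0.95. miR-150 in intestine gave -0.027 with normexp and -0.55 to -0.17 without a rat or an array. In the large minus the small intestine miR-150 turned to -0.72 with normexp, passed upwards with scaling over all miRNAs (0.64), by the median (0.46), by quantile (0.56) and in the authors' table (0.65), and ran from -0.56 to 0.54 without a rat or an array. Both arms of miR-142 lost their calls there under the same 4 scalings and with only the arrays compared. In white adipose tissue miR-142-3p failed with a higher floor (0.53), normexp (0.036), outlier spots (0.60), medians (0.58), no filter (0.60), the replicate block (0.60, adjusted p = 0.054) and scan day (0.59), with 0.37 to 0.91 without a rat or an array. miR-142-5p passed there with scaling over all miRNAs (0.56), the authors' table (4.41) and a floor 4 times as low (0.76), and normexp lost miR-150 (0.38) and miR-223 (0.50). In brown adipose tissue miR-142-5p gave 0.27 with scaling by the median, 0.10 with normexp and -0.013 with the higher floor, and miR-223 0.13 with scaling by the median and 0.61 with normexp. Brown minus white gave -0.025 for miR-142-3p with scaling by the median. In lung miR-142-5p gave 0.19 with the higher floor and -0.36 with normexp, and miR-150 0.33 with normexp. Normexp also gave -0.91 for miR-142-5p and -0.77 for miR-150 for perfusion in kidney, where it called 246 miRNAs against 1. For miR-142-5p it gave ratios of 0.90 in intestine, 2.07 in white and 1.56 in brown adipose tissue and 0.72 in lung, and the higher floor 1.60 in white adipose tissue. Over organ means, miR-223 in intestine failed with scaling over all miRNAs (1.01), quantile normalization (0.96) and the authors' table (0.83). The replicate block, with rat as a fixed block, changed no other call of 93. The number of miRNAs called also moved in 83 pairs of comparison and setting by over 1.5 times, for example with normexp (312 against 136 in bone marrow minus lymph nodes, 315 against 125 in bone marrow minus spleen), with only the arrays compared (82 against 125 in bone marrow minus spleen, 2 against 31 in ileum minus jejunum) and with no filter (498 of 716 against 92 in the ratio of thymus minus lymph nodes). With the strict filter fewer were tested (125 of 143 against 282 of 345 in bone marrow minus 41 organs).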
